A study of Mus musculus with 12 samples.

Results

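The globin genes and their erythroid companions were followed in mouse leukaemia cells through induction chemotherapy. The set held 10 genes of the 24344 symbols in the deposited tables, found by their names. They were the beta-globin genes Hbb-b1 and Hbb-b2, the alpha-globin genes Hba-a1 and Hba-a2, the carbonic anhydrase genes Car1 and Car2, the transcription factor genes Klf1 and Gata1, the heme synthesis gene Alas2 and the band 3 gene Slc4a1. Because Hba-a1 and Hba-a2 were each listed at a pair of loci, the 10 genes filled 12 table entries.

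RNA-seq libraries came from GFP-positive acute myeloid leukaemia cells driven by MLL-AF9, a fusion oncoprotein, MLL-AF9 transgenic by the labels and sorted from mouse marrow, with 1 library per mouse. Relapse mice (n = 4) were taken 10 days after doxorubicin and cytarabine ended, and iCT mice (n = 3) were taken 3 days after the drugs ended. Vehicle mice (n = 5) had neither drug. Doxorubicin poisons topoisomerase II and cytarabine is a nucleoside analogue. The cells of all 3 groups carried the fusion and the GFP, and the sources used here do not give the animals' age, strain or sex or the promoter behind the fusion.

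Red cells form in the marrow from erythroid progenitors, and the factors encoded by Gata1 and Klf1 switch on globin, heme and membrane genes as these cells mature. Haemoglobin joins alpha and beta chains, so both kinds of globin transcript are made together and come to dominate the RNA of late erythroblasts and reticulocytes. In a bulk library fewer cells of a type and less RNA per cell cannot be told apart.

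The labelled cell type was compared with its markers first. The 12 leukaemia marker genes on the list were above 0 in all 12 libraries, with 2 of them lower in iCT than in vehicle mice (Kit and Cebpa) and 1 higher (Spi1). Kit averaged 6.84 FPKM in iCT and 25.8 in vehicle mice, Cebpa 27.8 and 53.8, and Spi1 322 and 250. Summed levels were 9826 to 13850 FPKM in relapse, 10565 to 14293 in iCT and 10871 to 14026 in vehicle mice. Elane, Mpo and Prtn3 supplied most of each sum (5735, 3009 and 4682 of 14026 FPKM in vehicle mouse 4). The sums thus say little about the other markers. FPKM is the authors' Cufflinks value, the number of fragments divided by transcript length and by the fragments of the library. The 6 globin entries summed to 0.0071% to 0.0232% of all FPKM in relapse mice, 0.0008% to 0.0017% in iCT mice and 0.002% to 0.0556% in vehicle mice. The members thus took a small share of each library. The intervals in the tables implied 361914 fragments for the library of iCT mouse 1 and 1225254 to 8359793 for the 11 others. Of 3142 entries with at least 20 FPKM in all 11 other libraries, 4 were listed at 0 in iCT mouse 1.

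The globin copies are shown first because their near-identity limits what a value of 1 copy means. In the GENCODE M21 annotation of GRCm38 the coding sequences of Hba-a1 and Hba-a2 had 429 bases each and differed at 1, written C381T (the Hba-a1 base, the position counted from the first coding base, the Hba-a2 base). The longest stretch they shared was 380 bases, and the 142 residues they encode did not differ (0 differences). The Hbb-b1 and Hbb-b2 entries lie where that annotation has Hbb-bs and Hbb-bt, whose 444 coding bases differed at 1 (C417T in the order Hbb-bs, position, Hbb-bt) and whose 147 residues also showed 0 differences. The longest stretch that pair shared was 416 bases. The windows of 80 coding bases around the differing base are given here with that base in capitals.
Hba-a1 (GRCm38, chromosome 11, plus strand): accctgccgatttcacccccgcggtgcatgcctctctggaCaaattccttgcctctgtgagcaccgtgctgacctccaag
Hba-a2 (GRCm38, chromosome 11, plus strand): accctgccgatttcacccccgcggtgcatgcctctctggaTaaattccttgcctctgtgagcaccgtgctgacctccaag
Hbb-bs (GRCm38, chromosome 7, minus strand): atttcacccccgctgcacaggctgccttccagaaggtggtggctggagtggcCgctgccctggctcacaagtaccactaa
Hbb-bt (GRCm38, chromosome 7, minus strand): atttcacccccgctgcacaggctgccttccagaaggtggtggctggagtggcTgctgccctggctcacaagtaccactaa
A read that does not cover the capital matches both copies over the coding sequence. The sources used here do not say how such reads were shared out, so the copies are described alone and summed.

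Promoter sequence was printed for 4 genes whose transcripts are made together in erythroid cells. RefSeq windows of GRCm38.p6 were at hand for 5 of the 10 members and for Hbb-bs. In the 250 bases before each start, capitals mark 3 short motifs on either strand. The first is GATAA, the core of GATA factor sites, which reads TTATC on the other strand. The next is CACCC, the core of KLF sites, which reads GGGTG there. The last is the CCAAT box, which reads ATTGG there.
Hba-a1 (chr11:32283422-32283671, plus strand): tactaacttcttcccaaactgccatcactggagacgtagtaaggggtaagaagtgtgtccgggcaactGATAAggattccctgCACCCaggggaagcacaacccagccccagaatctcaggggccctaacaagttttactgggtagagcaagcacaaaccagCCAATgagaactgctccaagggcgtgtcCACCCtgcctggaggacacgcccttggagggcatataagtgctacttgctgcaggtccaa
Hbb-bs (chr7:103827929-103828178, minus strand): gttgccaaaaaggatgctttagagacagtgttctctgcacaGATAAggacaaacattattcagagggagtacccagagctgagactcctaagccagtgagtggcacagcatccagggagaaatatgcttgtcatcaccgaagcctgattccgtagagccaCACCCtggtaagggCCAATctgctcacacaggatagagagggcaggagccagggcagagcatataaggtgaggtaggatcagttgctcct
Klf1 (chr8:84901732-84901981, plus strand): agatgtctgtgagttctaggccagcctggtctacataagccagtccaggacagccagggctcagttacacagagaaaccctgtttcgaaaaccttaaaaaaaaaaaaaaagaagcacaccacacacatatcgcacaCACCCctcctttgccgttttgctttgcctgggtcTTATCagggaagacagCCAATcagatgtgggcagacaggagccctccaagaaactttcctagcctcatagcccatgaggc
Alas2 (chrX:150547167-150547416, plus strand): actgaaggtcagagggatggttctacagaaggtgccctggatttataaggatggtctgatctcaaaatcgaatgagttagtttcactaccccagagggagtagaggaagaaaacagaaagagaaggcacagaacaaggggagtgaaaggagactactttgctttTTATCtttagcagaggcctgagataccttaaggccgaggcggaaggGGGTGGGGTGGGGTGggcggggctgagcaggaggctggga
Hba-a1, Hbb-bs and Klf1 each had 1 GATA core and 1 CCAAT box, with 2 CACCC matches in Hba-a1 and 1 each in Hbb-bs and Klf1. Alas2 had 1 GATA core, 3 adjoining CACCC matches on the other strand, and 0 CCAAT boxes. The Hba-a2 window repeated that of Hba-a1, shifted by 3 bases and identical over 297 bases. The Gata1 window, which is not printed, had 0 GATA cores, 2 CACCC matches and 0 CCAAT boxes. These letters are common: of 32851 promoter windows in the table, 22.6% held a GATA core, 52% a CACCC match and 33.8% a CCAAT box. A match is a run of letters and does not show that a factor bound there.

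The comparison of iCT with vehicle asked what set leukaemia cells 3 days after chemotherapy apart. Of the adult globins, the entries named Hbb-b1, Hbb-b2 and Hba-a1 fell, each passing the test at every locus listed. The entries named Hba-a2 did not pass. Both alpha-globin names were listed on both alpha loci, so this split follows the names and does not separate the genes. The mean Hbb-b1 level was 1.01 FPKM in iCT mice, against 48.2 FPKM in vehicle mice. Car1 and Slc4a1 were listed at 0 in all 3 iCT mice but did not pass the test. Klf1 and Car2 did not pass either.

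Hbb-b1 (chromosome 7, 103826532 to 103827929), an adult beta-globin gene, was at 0, 2.45 and 0.585 FPKM in iCT mice 1 to 3. In vehicle mice 1 to 5 it was at 4.36, 24.8, 56.0, 99.4 and 56.3 FPKM. All 3 iCT values lay below all 5 vehicle values, although vehicle mouse 1 came within a few FPKM of iCT mouse 2. The log2 change was -4.27 (SE 0.77, limma adjusted p = 0.00664). It passed in every alternative tried, with log2 changes of -5.85 to -3.67 and adjusted p of 0.000579 to 0.0288. The 0 of iCT mouse 1 says little, since 3 fragments in that library would have been worth 17.7 FPKM. In iCT mice 2 and 3, whose libraries were deeper than those of all 5 vehicle mice, the values rested on 9.91 and 1.26 implied fragments, against 12.7 to 232 in vehicle mice. Without iCT mouse 1 the log2 change was -3.86 (limma adjusted p = 0.0243).

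Hbb-b2 (chromosome 7, 103812524 to 103813923), the neighbouring beta-globin copy, was at 0, 2.25 and 0.595 FPKM in iCT mice and at 1.80, 19.2, 35.8, 76.9 and 45.5 FPKM in vehicle mice. Here the groups overlapped, since vehicle mouse 1 lay below iCT mouse 2. The log2 change was -3.78 (SE 0.85, limma adjusted p = 0.0184). The call was lost without iCT mouse 1 (log2 change -3.38, adjusted p = 0.0593) and in a fit of iCT and vehicle alone (adjusted p = 0.0618). It was also lost with mouse number as a block (log2 change -3.10, adjusted p = 0.063).

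Hba-a1 was listed at a pair of loci on chromosome 11. The second starts where GENCODE M21 has the Hba-a2 transcript (32296489), so the name does not mark a single gene. At the first (32283672 to 32284486) it was at 6.13, 1.19 and 3.01 FPKM in iCT mice 1 to 3 and at 5.09, 47.4, 59.2, 93.5 and 55.4 FPKM in vehicle mice 1 to 5. At the second (32296489 to 32297303) the iCT values were 6.13, 1.19 and 0.0184 FPKM, against 5.09, 42.2, 55.1, 92.9 and 54.1 FPKM in vehicle mice. The other 4 vehicle mice stood well above all iCT mice, and vehicle mouse 1 lay below iCT mouse 1 at both loci. The 6.13 FPKM of iCT mouse 1 carried an interval of 0 to 24.2. Log2 changes were -3.31 (SE 0.82, limma adjusted p = 0.0272) and -3.91 (SE 0.90, limma adjusted p = 0.0207). Leaving out iCT mouse 3 or any 1 of vehicle mice 2 to 5 lost the first-locus call (adjusted p of 0.0508 to 0.0588). It was also lost without the filter (0.0614), in a fit of iCT and vehicle alone (0.0556) and with mouse number as a block (0.125). The second-locus call was lost without iCT mouse 3 (adjusted p = 0.0568) and with that block (adjusted p = 0.119).

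Hba-a2, the other alpha-globin name, was the least settled member. Its entries (32283675 to 32284493 and 32296492 to 32297310) start 3 bases from those of Hba-a1 on the same loci. At the first locus it was at 0.596, 0.0181 and 0.0212 FPKM in iCT mice and at 0.0167, 0.113, 0.136, 63.4 and 16.6 FPKM in vehicle mice. At the second, iCT mouse 3 stood at 5.10 FPKM while its Hba-a1 value there was 0.0184. Hba-a2 was thus near 0 in most libraries and high in a few. Its log2 changes of -1.86 (SE 1.49, limma adjusted p = 0.411) and -0.96 (SE 1.51, limma adjusted p = 0.689) did not pass.

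The copies were also summed, because the split of reads between names cannot be read on its own. Hbb-b1 and Hbb-b2 together were at 0, 4.70 and 1.18 FPKM in iCT mice, against 6.16, 44.0, 91.8, 176 and 102 FPKM in vehicle mice. The 4 alpha-globin entries together were at 13.5, 2.42 and 8.15 FPKM in iCT mice, against 10.2, 89.7, 115, 308 and 142 FPKM in vehicle mice. The beta sums of the groups did not overlap, and the alpha sums overlapped only through iCT mouse 1 and vehicle mouse 1. As 1 row each in the whole-table fit, the beta sum had a log2 change of -4.59 (SE 0.87, limma adjusted p = 0.00802) and the alpha sum of -3.52 (SE 0.85, limma adjusted p = 0.0251). Adding the entries of both loci may count a shared fragment more than once, so the alpha sums are read between groups and not as absolute levels.

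**Figure D1:**
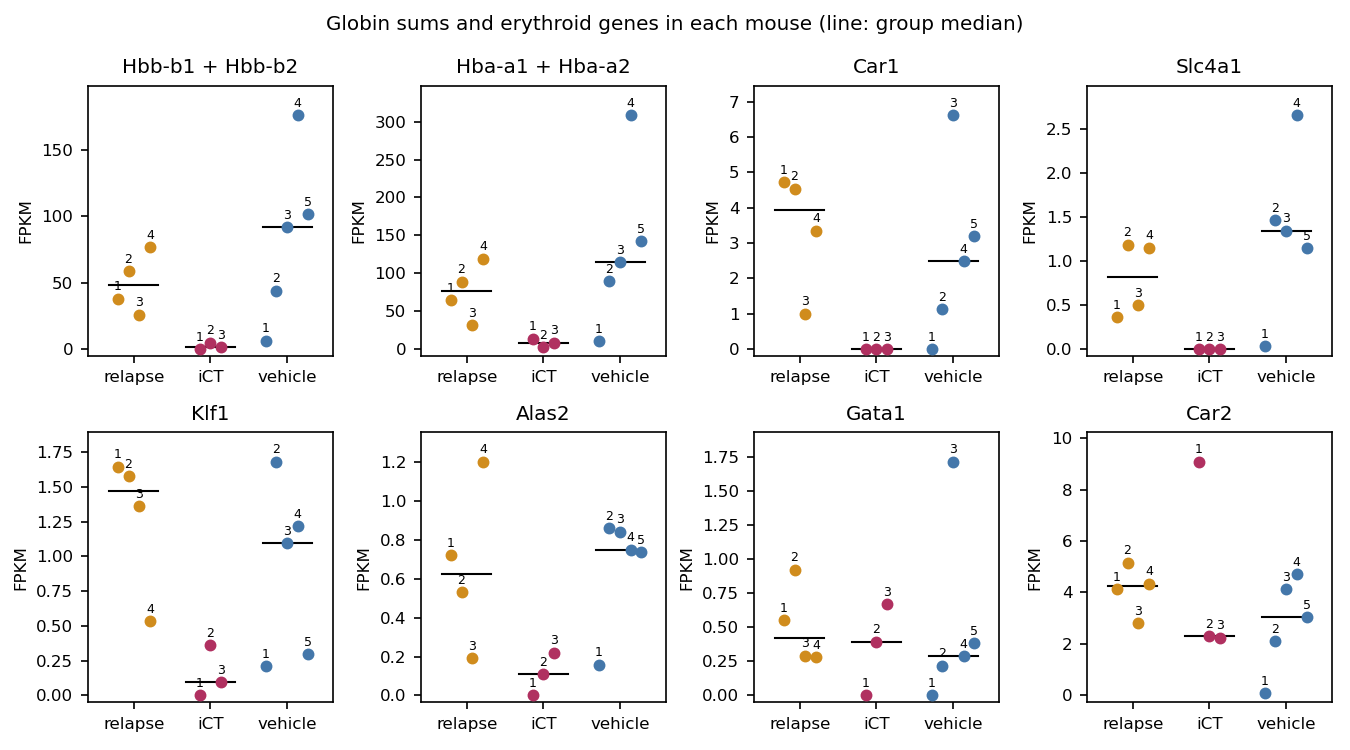
FPKM of the beta-globin sum, the alpha-globin sum and 6 further genes in each mouse of the relapse (n = 4), iCT (n = 3) and vehicle (n = 5) groups; points are mice, numbered, and lines are group medians. Both globin sums lie near 0 in all iCT mice and in vehicle mouse 1, and Car1 and Slc4a1 are listed at 0 in all iCT mice.

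The division of alpha-globin signal between names differed from mouse to mouse within each group. Hba-a2 took 0.0753% to 85.1% of the alpha sum in relapse mice, 1.49% to 62.8% in iCT mice and 0.207% to 39.6% in vehicle mice. In relapse mouse 2 Hba-a2 was at 39.8 and 35.6 FPKM where Hba-a1 was at 7.45 and 5.76 FPKM, and relapse mice 1, 3 and 4 showed the reverse. Hbb-b1 over Hbb-b2 was 1.16 to 1.26 in relapse mice, 1.09 and 0.983 in iCT mice 2 and 3, and 1.24 to 2.42 in vehicle mice. The alpha sum over the beta sum was 1.20 to 1.69 in relapse mice and 1.25 to 2.04 in vehicle mice. In iCT mice 2 and 3 the same ratio was 0.516 and 6.91, at levels of a few FPKM.

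**Figure D2:**
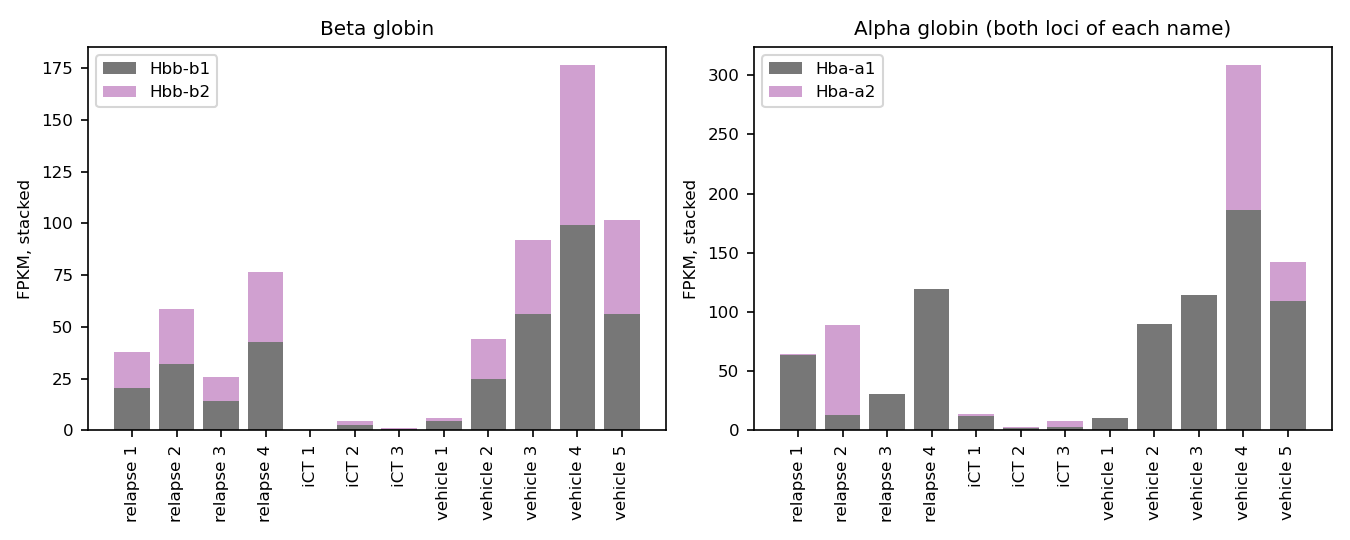
Stacked FPKM of the beta-globin names (left) and the alpha-globin names, each summed over both loci (right), in each relapse, iCT and vehicle mouse. Hbb-b1 over Hbb-b2 is 1.16 to 1.26 in relapse mice and 1.24 to 2.42 in vehicle mice, and Hba-a2 takes 85.1% of the alpha bar in relapse mouse 2 and 0.0753% in relapse mouse 4.

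The other erythroid members were lower still. Car1 (chromosome 3, 14766214 to 14808365), the carbonic anhydrase of red cells, was listed at 0 in iCT mice 1, 2 and 3. In vehicle mice it was at 0, 1.13, 6.61, 2.48 and 3.20 FPKM. Vehicle mouse 1 shared the 0 of the iCT mice. In iCT mice 2 and 3 a value under 0.337 and 0.445 FPKM, worth 3 fragments, could have gone unseen, and in iCT mouse 1 a value of up to 8.34. The limma adjusted p was 0.0805. It passed in 3 of 24 alternatives, among them the one without vehicle mouse 1 (0.0234), and reached 0.253 in the others. No fold is given against a group at 0.

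Slc4a1 (chromosome 11, 102348820 to 102365281) encodes band 3, the anion exchanger of the red cell membrane. It was also listed at 0 in all 3 iCT mice, and was at 0.0323, 1.46, 1.34, 2.65 and 1.14 FPKM in vehicle mice. No vehicle mouse was at 0, so the groups did not overlap. The FPKM worth 3 fragments was 0.0672 and 0.0886 in iCT mice 2 and 3 and 1.66 in iCT mouse 1. The limma adjusted p was 0.0558, which misses the threshold of 0.05. It passed in 3 of 24 alternatives, among them the one without vehicle mouse 1 (0.0107), and reached 0.151 in the others.

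Klf1 (chromosome 8, 84901928 to 84905295), the erythroid Kruppel-like factor that activates beta-globin, was at 0, 0.361 and 0.0955 FPKM in iCT mice, against 0.211, 1.68, 1.10, 1.22 and 0.295 FPKM in vehicle mice. The ranges overlapped. The log2 change of -0.67 (SE 0.29, limma adjusted p = 0.152) did not pass. On the log2(FPKM + 1) scale a change at such levels is understated. Alas2 (chromosome X, 150547417 to 150570622), the erythroid first enzyme of heme synthesis, was at 0, 0.111 and 0.220 FPKM in iCT mice, against 0.158, 0.862, 0.843, 0.750 and 0.737 FPKM in vehicle mice. All vehicle mice but mouse 1 lay above every iCT mouse. The Alas2 values of iCT mice 2 and 3 rested on 1.19 and 2.03 implied fragments, and those of vehicle mice 2 to 5 on 1.19 to 8.25. Gata1 (chromosome X, 7959260 to 7967910), the GATA factor of red cells, megakaryocytes, mast cells and eosinophils, was at 0, 0.396 and 0.673 FPKM in iCT mice. In vehicle mice it was at 0, 0.220, 1.72, 0.287 and 0.385 FPKM, and the groups overlapped throughout. In iCT mouse 1, 3 fragments would have been worth 5.38 FPKM for Klf1, 5.18 for Alas2 and 4.22 for Gata1. These lie above every vehicle value of the same gene, so the 0 of that mouse says little. Alas2 and Gata1 stayed under the filter, which asked for 1 FPKM or more in 3 or more libraries, and were not tested.

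Car2 (chromosome 3, 14886426 to 14900770), a carbonic anhydrase of red cells that osteoclasts also use to acidify bone, was at 9.08, 2.30 and 2.24 FPKM in iCT mice. In vehicle mice it was at 0.0883, 2.12, 4.14, 4.71 and 3.05 FPKM. The highest Car2 value of the study was thus in iCT mouse 1, and the groups overlapped. That value rested on 6 implied fragments in the shallow library, with an interval of 1.67 to 16.5 FPKM. The log2 change was 0.52 (SE 0.51, limma adjusted p = 0.503) and -0.02 without iCT mouse 1. Osteoclast markers are given beside it: of 11 tested markers on a list of 15, 6 rose and 1 (Ostm1) fell in iCT. Their summed level was 338 to 1088 FPKM in iCT mice, against 92.9 to 163 FPKM in vehicle mice, and it was highest in iCT mouse 1. In iCT mice 2 and 3 it also exceeded every vehicle mouse, while their Car2 values lay inside the vehicle range. The 4 risers with the smallest p were Dcstamp, Acp5, Ctsk and Mmp9. The risers Dcstamp, Atp6v0d2 and Ocstamp reached 1 FPKM only in the 3 iCT libraries. They passed the filter through those libraries alone, so their rises are not independent of the filter. Ctsk, cathepsin K of osteoclasts, was at 277, 75.0 and 61.1 FPKM in iCT mice and at 0 to 2.47 FPKM in vehicle mice. Their part in the Car2 value was not tested.

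Over the set, 10 of the 12 entries, belonging to 8 of the 10 genes, passed the filter and were tested. Of these 10 entries 4 were lower in iCT and 0 higher, beside 9.62% of all 11019 entries tested (6.31% lower and 3.31% higher). The 4 entries stand for 3 gene names that share reads, so they are not 4 separate observations. The median log2 change of the 10 entries was -1.72, beside -0.08 over all entries tested, and -2.58 without Car1 and Slc4a1, whose fitted changes against a group at 0 depend on the pseudocount. Vehicle mouse 1 was the lowest or joint lowest vehicle mouse for all 10 genes, with 5757207 implied fragments behind its library. With neither iCT mouse 1 nor vehicle mouse 1, an alternative chosen after the data were seen, 6 entries were lower: the 4 above together with Car1 and Slc4a1. The share of all entries called in that fit is not given here. Calls over all entries also changed with the libraries kept, so the 6 are not read as a result about the members.

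**Figure D3:**
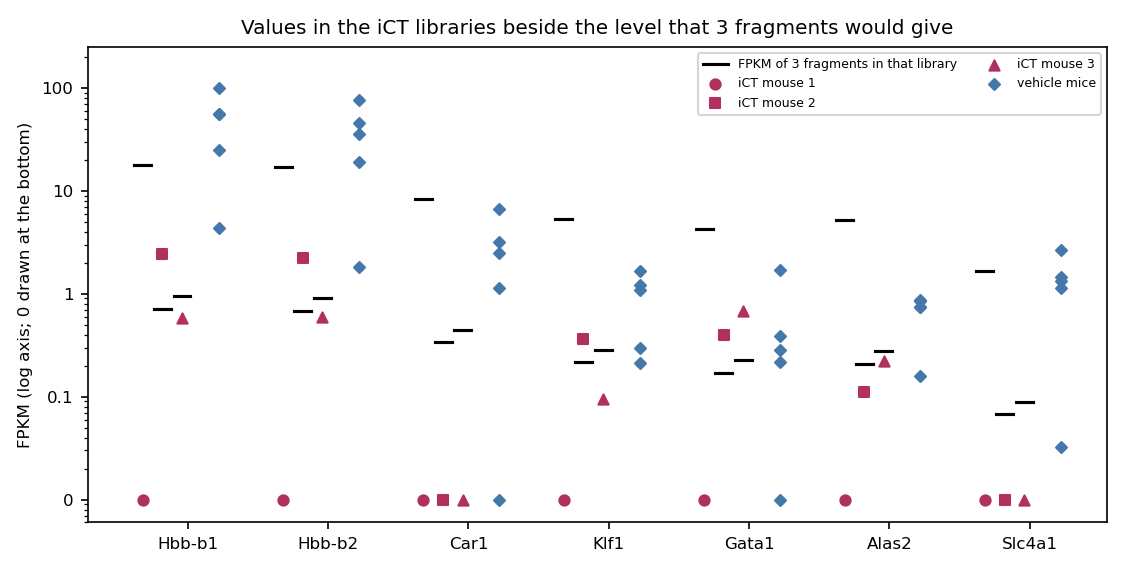
FPKM on a log axis of 7 genes in iCT mice 1 to 3 and in vehicle mice, with a dash at the FPKM that 3 fragments would give in each iCT library; values of 0 are drawn at the bottom. The dash of iCT mouse 1 lies above the value of vehicle mouse 1 for every gene shown. For Car1, Klf1, Gata1 and Alas2 it lies above all vehicle values. The dashes of iCT mice 2 and 3 lie below most vehicle values for Hbb-b1, Hbb-b2, Car1 and Slc4a1.

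Genes that act beside the members in red cells were read from gene lists. Of 17 red cell membrane and skeleton entries found, 8 to 13 were listed at 0 in each iCT mouse, against 0 to 7 in vehicle mice. The 13 were in the shallow library of iCT mouse 1, and the nearest counts were 8 in iCT mouse 2 and 7 in vehicle mouse 1. Over all entries of the tables, 57.9% were at 0 in iCT mouse 1, 41.9% and 44.2% in iCT mice 2 and 3, and 42.7% to 50.0% in vehicle mice. Only 7 of the 17 were tested, of which 1 fell and 0 rose. The one that fell was Aqp1, the water channel of red cells and endothelium, at 0, 0 and 0.0497 FPKM in iCT mice and at 0.329 to 3.75 FPKM in vehicle mice (log2 change -1.31, SE 0.38, limma adjusted p = 0.0487). Rhag, of the Rh complex, was at 0 in all iCT mice and at 0 to 0.883 FPKM in vehicle mice. It did not pass the filter.

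In the other erythroid lists few genes passed, and their counts are read beside the 9.62% of all entries. Of 12 tested heme synthesis genes 0 passed in either direction, with a median log2 change of -0.09. Alas1, the housekeeping first enzyme, was at 231, 243 and 294 FPKM in iCT mice and at 174 to 252 FPKM in vehicle mice, far above Alas2 per length. Of 10 tested erythroid transcription factor genes 1 rose and 0 fell. It was the cell-cycle factor gene E2f4, with a mean of 50.3 FPKM in iCT mice and 32.3 FPKM in vehicle mice (log2 change 0.63, SE 0.18, limma adjusted p = 0.0454). Lmo2 and Nfe2, factors of early blood cells and platelets as well as red cells, averaged 254 and 109 FPKM in iCT mice, against 330.2 and 134 FPKM in vehicle mice, with limma adjusted p of 0.0645 and 0.0556. Of 9 tested iron uptake and erythropoietin signalling genes 1 rose and 1 fell. Pim1, a kinase gene induced by cytokines, averaged 62.3 FPKM in iCT mice and 8.56 in vehicle mice (log2 change 2.80, limma adjusted p = 0.000323), and Stat5b averaged 6.99 FPKM in iCT mice and 13.7 FPKM in vehicle mice (log2 change -0.96, limma adjusted p = 0.0259). Of 10 tested late red cell genes 1 rose, Gclm of glutathione synthesis (log2 change 0.73, limma adjusted p = 0.0224), and 0 fell. Of 6 tested carbonic anhydrases 1 fell, the hypoxia-induced Car9, which averaged 5.33 FPKM in iCT mice and 9.41 FPKM in vehicle mice (limma adjusted p = 0.0434).

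Globins of other stages were not seen. Hba-x, Hbb-y, Hbb-bh1, Hbb-bh2 and Hbq1a, the embryonic and minor globin genes, were listed at 0 in all 12 libraries, and Hbq1b was at 0.303 FPKM in relapse mouse 3 and at 0 elsewhere. Hbb-bs, whose entry overlaps that of Hbb-b1, reached at most 0.367 FPKM.

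Markers of other marrow cells were read beside the globins, and their part in the globin result was not tested. Of 11 tested macrophage markers 8 rose and 1 fell in iCT, with summed levels of 191 to 351 FPKM in iCT mice and 159 to 211 FPKM in vehicle mice. The risers with the smallest p were the complement genes C1qa and C1qc and the mannose receptor gene Mrc1. Mrc1 reached 1 FPKM only in the iCT libraries and passed the filter through them alone, so its rise is not independent of the filter. Hmox1, the heme-degrading oxygenase, chosen after its values were seen, averaged 29.9 FPKM in iCT mice and 7.82 FPKM in vehicle mice (log2 change 1.79, limma adjusted p = 0.00316). The one that fell was Adgre1, the F4/80 antigen gene (log2 change -1.87, limma adjusted p = 0.000192). Of 4 tested markers of eosinophils, cells that also use Gata1, 2 fell (Prg3 and Siglecf). Summed levels of the list were 20.8 to 31.7 FPKM in iCT mice and 57.8 to 92.3 FPKM in vehicle mice. The gap rested largely on Prg3 (means of 4.65 and 21.3 FPKM) and Siglecf (9.22 and 33.8). Prg2 averaged 6.57 and 10.5 FPKM and Ear2 4.11 and 3.74, and neither passed. The untested Ccr3, Ear1 and Il5ra averaged higher in iCT mice and Epx lower, all under 1 FPKM. Of 5 tested mast cell and basophil markers 1 fell, Hdc of histamine synthesis (log2 change -1.50, limma adjusted p = 0.00017). Their summed levels were 44.0 to 56.5 FPKM in iCT mice and 84.4 to 116.5 FPKM in vehicle mice. Hdc alone was at 24.3 to 28.1 and 64.2 to 88.2 FPKM in these groups, so the gap rested largely on it. Prss34 averaged 10.7 FPKM in iCT and 7.66 in vehicle mice, Cpa3 2.57 and 1.93, and Mcpt8 7.31 and 6.98. Gata2 averaged 3.15 and 5.40 FPKM, and none of these other markers passed. Of 2 tested megakaryocyte markers 1 rose, the platelet chemokine gene Pf4 (log2 change 2.76, limma adjusted p = 0.00342). The summed levels of that list were 12.4 to 27.3 FPKM in iCT mice and 1.80 to 8.89 FPKM in vehicle mice.

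The comparison of relapse with iCT asked how the cells differed 10 days after chemotherapy from those at 3 days. Hbb-b1, Hbb-b2 and Car1 were higher in relapse mice. This comparison shares its iCT mice with the previous one, so its rises are not separate evidence of the low iCT values. Hbb-b1 was at 20.4, 31.9, 14.2 and 42.7 FPKM in relapse mice 1 to 4, against the 0, 2.45 and 0.585 FPKM of the iCT mice. Every relapse mouse lay above every iCT mouse. The log2 change was 3.89 (SE 0.81, limma adjusted p = 0.0133), and it passed in all alternatives tried, with adjusted p of 0.00222 to 0.0403. Hbb-b2 was at 17.6, 26.8, 11.6 and 33.9 FPKM in relapse mice, again above all iCT mice (log2 change 3.66, SE 0.88, limma adjusted p = 0.0239). Without iCT mouse 1 or relapse mouse 1, 2 or 4 its adjusted p was 0.05 to 0.068, which does not pass, and without the filter it was 0.0544.

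Car1 was at 4.73, 4.54, 0.997 and 3.35 FPKM in relapse mice and listed at 0 in all iCT mice. The groups did not overlap, and the limma adjusted p was 0.0406. This call was lost in 13 of 24 alternatives, with adjusted p of up to 0.145, and the loss followed the removal of any 1 iCT mouse, of relapse mouse 1, 2 or 4 or of vehicle mouse 2, 4 or 5. Slc4a1 was at 0.360, 1.18, 0.493 and 1.15 FPKM in relapse mice, above the 0 of all iCT mice, but did not pass (limma adjusted p = 0.15).

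Hba-a1 was at 31.9, 7.45, 16.6 and 62.0 FPKM at its first locus in relapse mice and at 31.9, 5.76, 14.3 and 57.1 FPKM at its second. Relapse mouse 2 was the lowest, and at the second locus it lay below the 6.13 FPKM of iCT mouse 1. The log2 changes from iCT were 2.57 (SE 0.86, limma adjusted p = 0.0759) and 3.07 (SE 0.94, limma adjusted p = 0.0577). Without vehicle mouse 1, which enters through the shared spread, both passed (adjusted p = 0.02 and 0.0231), and the second also passed without iCT mouse 1 (adjusted p = 0.0403) and without relapse mouse 2 (adjusted p = 0.0499). The Hba-a2 log2 changes of 1.19 (SE 1.56) and 0.28 (SE 1.58) did not pass (limma adjusted p = 0.632 and 0.92). Summed over names, alpha-globin was at 64.1, 88.6, 31.0 and 119 FPKM in relapse mice, above all iCT mice, with a log2 change of 3.16 (SE 0.89, limma adjusted p = 0.0432). The beta sum was at 38.0, 58.7, 25.8 and 76.6 FPKM in relapse mice, with a log2 change of 4.34 (SE 0.91, limma adjusted p = 0.0135).

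Klf1 was at 1.65, 1.58, 1.36 and 0.535 FPKM in relapse mice, each above all iCT mice, with a log2 change of 0.96 (SE 0.31, limma adjusted p = 0.0661) that did not pass. Alas2 was at 0.723, 0.531, 0.191 and 1.20 FPKM in relapse mice, where relapse mouse 3 overlapped the iCT mice. Gata1, at 0.552, 0.926, 0.291 and 0.280 FPKM, overlapped them more widely. Car2 was at 4.14, 5.15, 2.81 and 4.34 FPKM in relapse mice, between iCT mouse 1 and the other iCT mice, with a log2 change of 0.08 (SE 0.53, limma adjusted p = 0.931) whose sign turned under median-of-ratios scaling (-0.01) and quantile normalization (-0.10).

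Over the set 3 of 10 tested entries were higher in relapse and 0 lower, beside 9.72% of all entries (6.62% higher and 3.1% lower). The median log2 change of the 10 entries was 1.61, beside 0.16 over all entries tested, and 1.88 without Car1 and Slc4a1. Among the list genes, Aqp1 was at 1.96, 2.63, 0.581 and 1.95 FPKM in relapse mice and rose (log2 change 1.39, limma adjusted p = 0.0465). It was the 1 of 7 tested membrane genes that did, with 0 lower. Of 6 carbonic anhydrases tested 2 rose, Car1 and Car9, and 0 fell. Heme synthesis genes and erythroid transcription factors had 0 calls in either direction, of 12 and 10 tested.
Marker lists of other cells moved too: of 11 osteoclast markers 5 fell and 1 rose in relapse, and of 11 macrophage markers 8 fell and 1 rose. Among those that fell were Atp6v0d2, Dcstamp, Ocstamp and Mrc1, which passed the filter through the iCT libraries alone. Summed osteoclast levels were 140 to 254 FPKM in relapse mice, and summed macrophage levels 116 to 140 FPKM. Their part in the member values was not tested.

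**Figure D4:**
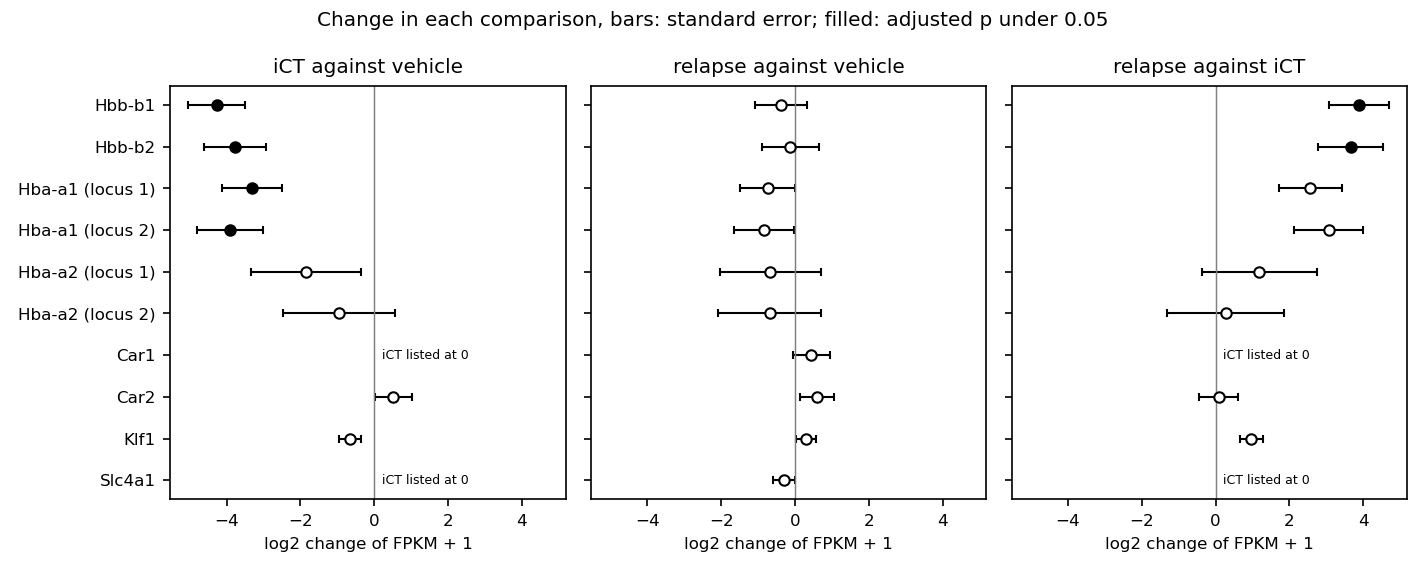
Log2 change of FPKM + 1 for the 10 tested entries in iCT against vehicle, relapse against vehicle and relapse against iCT; bars are standard errors and filled points have an adjusted p under 0.05. In iCT against vehicle the 4 filled points are Hbb-b1, Hbb-b2 and both Hba-a1 loci, no point is filled in relapse against vehicle, and no fold is drawn where all iCT mice were at 0.

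The comparison of relapse with vehicle asked what remained different at 10 days. None of the 10 tested entries passed (0 called), beside 0% of all entries by limma, whose lowest adjusted p was 0.173. At an unadjusted p under 0.05 there were 0 member entries and 1604 entries in all (14.6%). Of all 11019 entries 971 passed when libraries were weighted, and 612 entries passed in a model of relapse and vehicle libraries alone. Of the member entries 0 passed in any alternative. At such shares few calls would fall among 10 entries, so this 0 does not set the members apart. Hbb-b1 averaged 27.3 ± 12.6 FPKM in relapse mice (SD, n = 4) and 48.2 ± 36.1 FPKM in vehicle mice (SD, n = 5). The relapse values lay inside the vehicle range. The log2 change was -0.38 (SE 0.71, limma adjusted p = 0.863), so the error exceeded the change. The log2 changes were -0.12 (SE 0.78) for Hbb-b2 and -0.74 (SE 0.75) and -0.84 (SE 0.82) for Hba-a1, all with limma adjusted p of at least 0.696. Car1 averaged 3.40 ± 1.72 FPKM in relapse mice and 2.68 ± 2.52 FPKM in vehicle mice (SD, n = 4 and 5; log2 change 0.45, SE 0.49). Slc4a1 averaged 0.796 ± 0.430 FPKM in relapse mice and 1.33 ± 0.934 FPKM in vehicle mice (SD; log2 change -0.30, SE 0.31). Klf1 averaged 1.28 ± 0.511 FPKM in relapse mice and 0.901 ± 0.631 FPKM in vehicle mice (SD; log2 change 0.30, SE 0.27). For Car2 the log2 change was 0.60 (SE 0.47, limma adjusted p = 0.597). The median over the 10 tested entries was -0.34, beside 0.06 over all entries tested. In none of the lists above did a tested gene pass (0 calls).

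Genes whose profile over the 12 libraries was most like that of a member were named as a description, since the libraries share depth and group. For Hbb-b1 the closest tested genes outside the set were Sqle of sterol synthesis, the guanylate-binding protein gene Gbp3 and the histone variant gene H2afv, each with a Pearson r of 0.94 on log2(FPKM + 1). Sqle and H2afv were also the closest to Hbb-b2 (r of 0.92), with Aqp1 next (0.92). Car1 lay closest to the mitotic kinesin gene Kif23 (0.93), Aqp1 (0.91) and the kinetochore gene Kntc1 (0.91). Slc4a1 lay closest to Atp10a (0.92), Insig1 (0.89) and Slco4a1 (0.89), and Hba-a1 to the class I gene H2-T23 at its first locus (0.94) and to the sterol regulator gene Insig1 at its second (0.94). For Klf1 the closest was Tecr (0.88) and for Car2 Med26 (0.93). Hba-a2 had no match above 0.74.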

How the data were processed

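The authors deposited 1 Cufflinks gene table per mouse in FPKM, with interval bounds, per the file headers. Alignment was by STAR, per the submitters' processing notes, which name mm9 and give no versions. Of 23028 single-locus symbols, 22890 (99.4%) overlapped the GRCm38 gene of that name in GENCODE M21, so coordinates are given as GRCm38. Fragments behind a value were estimated as the square of 2 times FPKM over the interval's half-width, and the FPKM worth 3 fragments was set from them; both cover counting error only.

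Entries that reached 1 FPKM in 3 or more libraries (11019) were fitted as log2(FPKM + 1), a pseudocount of 1, with limma 3.58.1 in R 4.3.3. Group was the only term over the 12 libraries, with a variance trend and Benjamini-Hochberg adjustment over all entries at 0.05. The procedure was tested on simulated data. The 2 entries with a failed estimate were left out. The genes and the 14 lists were chosen with earlier results of these data known. All members were named, with up to 4 passing genes per list by smallest p in the comparison described, the globin and carbonic anhydrase families and the 3 most alike genes; further list genes were chosen after their values were seen. Mice are separate animals, so p-values measure the spread between mice. Alternatives were other pseudocounts, filters, scalings, summed copies, library weights (statmod 1.5.0), an untrended variance, fits of single pairs of groups, mouse number as a block and each library left out.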

Additional observations from a re-analysis of the deposited data

Results flagged for a closer look

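Of 28 groups examined for a mouse far from the rest of its own group (members and sums, relapse and vehicle), 6 held one. For normally spread values chance flags about 1 group in 20. The groups are not independent, since the sums repeat members and the alpha-globin entries share reads. The 6 are thus not read as an excess over chance. Of these, 4 were Hba-a2 entries, at 39.8 and 35.6 FPKM in relapse mouse 2 and at 63.4 and 58.6 FPKM in vehicle mouse 4. Alas2 stood apart at 0.158 FPKM in vehicle mouse 1, below the other vehicle mice, on 1.01 implied fragments. Gata1 stood apart at 1.72 FPKM in vehicle mouse 3, above the other vehicle mice, on 4 implied fragments.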

How the results depend on the processing

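Called entries of the set in iCT against vehicle numbered 4. They were 2 in a fit of only these groups, 2 with copies summed (both sums) and 1 with the replicate block. Leaving out 1 library gave 2 (without iCT mouse 3) to 6 (without vehicle mouse 1). In relapse against iCT 3 were called. Without a filter 1 was called, and leaving out 1 library gave 1 (relapse mouse 1 or 4) to 5 (vehicle mouse 1). With neither iCT mouse 1 nor vehicle mouse 1, chosen after the data were seen, it was 5. In relapse against vehicle 0 were called under all alternatives. Over all entries the 1060 calls of iCT against vehicle became 457 with array weights, 351 in a fit of these groups, 197 with the block and 569 to 2722 with 1 library out. The 1071 of relapse against iCT became 603, 252, 372 and 529 to 1855. Member counts thus moved while calls over all entries moved too. The rises to 6 and 5 are therefore not read as results about the members. Same-numbered mice correlated at -0.0911 to 0.099. No correlations of differently numbered mice stand beside these, so whether the numbers pair the animals was not tested. The causes of these changes were not tested.

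Signs turned only for values that did not pass. In iCT against vehicle, Car2 was -0.13 with array weights, -0.42 with neither mouse 1 and -0.0202 to 0.80 with 1 library out, and Hba-a2 at its second locus was 0.0552 with the block. In relapse against vehicle, Hbb-b2 was 0.12 with the block and -0.89 to 0.31 with 1 library out, Hbb-b1 -1.04 to 0.0133, and Hba-a2 at its second locus -1.95 to 0.28. In relapse against iCT that entry was -0.22 at a pseudocount of 0.1, -0.23 with the block and -0.99 to 1.03 with 1 library out, and Car2 was -0.0133 with median-of-ratios scaling, -0.10 with quantile normalization, -0.0758 with the block and -0.20 to 0.62 with 1 library out. The depth of iCT mouse 1 limits every value there, and levels under 1 FPKM rest on few fragments in any library.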
